A study of Mus musculus with 40 samples.

Results

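The genes of cholesterol synthesis and its sterol control were followed here as 1 module of 30 genes, of 56748 genes counted, in mouse embryonic stem cells that lack the lamins, the lamin B receptor (LBR) or both. The members were listed by their function in the pathway, a rule that used no measured value. They are 18 enzymes of the path (Hmgcs1, Mvk, Pmvk, Mvd, Idi1, Fdps, Ggps1, Fdft1, Sqle, Lss, Cyp51, Tm7sf2, Msmo1, Nsdhl, Hsd17b7, Ebp, Sc5d and Dhcr7), 5 genes of the SREBP control (Insig1, Insig2, Srebf1, Srebf2 and Scap), 3 genes of acetyl-CoA supply and sterol transfer (Acat2, Stard4 and Acly) and 4 genes of efflux and of the oxysterol receptor LXR (Abca1, Abcg1, Mylip and Nr1h2). All 30 passed the filter on low counts.

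Total RNA was sequenced from 40 libraries of XY mouse embryonic stem (mES) cells held in naive pluripotency, in 2i and LIF without serum or feeders, or taken to the primed state as epiblast-like cells (EpiLCs) with FGF (20 ng/mL) together with Activin A (12 ng/mL) and collected at 48 h. The WT cells, from a littermate line, gave 8 libraries per stage, and each mutant genotype gave 4. LBRKO cells carried frameshift deletions in Lbr in the WT background. Several such clones were made, and the labels do not say from which the libraries came. TKO cells lacked Lmna, Lmnb1 and Lmnb2. QKO cells were the only surviving clone of the TKO line after Lbr editing, so that QKO is 1 clone and carries every lamin deletion of TKO. Of its Lbr alleles 1 has a frameshift deletion and the other an in-frame deletion. The TKO line had trisomy of chromosome 8, with loss of the Y chromosome in part of the cells. Most WT cells had normal ploidy, while some had lost the Y chromosome and some of those also had trisomy of chromosomes 6 and 8. Each library came from its own culture well, and nothing ties the wells to separate derivations of a line, so the p-values measure the spread between these wells.

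Cholesterol is built from acetyl-CoA through mevalonate and the isoprenoids to squalene, which is closed into lanosterol and then trimmed, reduced and rearranged to cholesterol. When membrane sterol is low, SCAP carries the SREBP transcription factors to the Golgi, where they are cut and released to switch on the enzymes of the path, while INSIG proteins hold SCAP back when sterol is high. Oxysterols, which build up with sterol, bind LXR, which in many cells raises the exporters ABCA1 and ABCG1. LBR enters this path directly: its C-terminal part is a sterol C14-reductase, and TM7SF2, its paralogue in the endoplasmic reticulum, carries out the same step.

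Levels are given as CPM, a gene's counts relative to the TMM-scaled total of its library. Lists of 4 values run from replicate 1 to replicate 4. Differences are log2 fold changes ± SE from edgeR's quasi-likelihood fit over all 40 libraries, with p-values adjusted over the 23399 genes tested. A member is said to have risen or fallen where its adjusted p was under 0.05. The mutants of a stage were all compared with the same WT libraries, so these comparisons are not independent of each other. In bulk RNA, fewer cells of a type and less RNA per cell cannot be told apart.

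Depth was 22.6 to 48.9 M counts per library, but it did not run evenly across genotypes. WT replicates 5 to 8 (39.4 to 48.9 M) and LBRKO (39.7 to 48.1 M) were deeper than WT replicates 1 to 4 (25.4 to 33.5 M), TKO (22.6 to 33.6 M) and QKO (24.5 to 33.0 M). The labels give no batch, so the counts of each comparison with WT are also given with either WT set alone. Among EpiLCs, replicates 5 to 8 lay wholly above replicates 1 to 4 for 18 of 30 members and wholly below for 1, with a median ratio of 1.32, where 8.63% and 5.08% of all genes lay so. In mES cells it was 8 above and 3 below, with a median ratio of 1.03, beside 11.6% and 10.3% of all genes. Lmnb1 and Lmnb2 were far below WT in TKO and QKO (log2 fold changes of -4.61 to -9.26), and Lmna stood at -1.86 to -0.43. Naive markers summed to 3822 to 4526 CPM in WT mES cells and 104.1 to 172.7 CPM in WT EpiLCs, and primed markers to 129.8 to 210.5 and 3150 to 3840 CPM. No member lies on chromosome 6, whose genes had a median log2 fold change of 0.38 in LBRKO mES cells and 0.37 in LBRKO EpiLCs.

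The stretches just before the start sites of a few members are given for their motifs. Each of these members had 1 of the 3 largest called changes in at least 1 comparison of a mutant with WT. Other such members are not shown. Among them are Mvd, with 2 CCAAT boxes upstream, and Pmvk, with 0 in 1 stretch and 1 in another. Each stretch below shows the 250 bases upstream of a RefSeq start, read 5′ to 3′ on the gene's strand. The promoters are of build GRCm38.p6, placed in GRCm39 by exact match. By the GENCODE gene starts, the Tm7sf2 stretch lies wholly inside its gene, and those of Mvk, Msmo1, Insig1 and Abca1 reach into theirs. Capitals mark CCAAT on either strand and, in Hmgcs1, a match to the sterol regulatory element.
Hmgcs1 (chr13:120151637-120151886, plus strand): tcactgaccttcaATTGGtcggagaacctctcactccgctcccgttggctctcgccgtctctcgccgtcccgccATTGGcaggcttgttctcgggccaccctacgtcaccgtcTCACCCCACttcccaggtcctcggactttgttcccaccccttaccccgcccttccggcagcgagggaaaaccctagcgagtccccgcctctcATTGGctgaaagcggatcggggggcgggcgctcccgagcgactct
Mvk (chr5:114582080-114582329, plus strand): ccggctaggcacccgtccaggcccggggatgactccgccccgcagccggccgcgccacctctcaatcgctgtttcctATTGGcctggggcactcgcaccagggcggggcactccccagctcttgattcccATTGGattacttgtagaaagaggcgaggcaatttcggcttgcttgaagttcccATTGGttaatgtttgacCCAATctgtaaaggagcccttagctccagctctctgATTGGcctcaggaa
Tm7sf2 (chr19:6117881-6118130, minus strand): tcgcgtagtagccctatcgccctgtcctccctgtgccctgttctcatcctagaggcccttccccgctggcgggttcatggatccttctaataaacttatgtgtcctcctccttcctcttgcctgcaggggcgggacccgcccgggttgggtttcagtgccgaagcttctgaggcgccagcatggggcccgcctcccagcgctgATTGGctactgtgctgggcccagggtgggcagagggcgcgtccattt
Msmo1 (chr8:65186613-65186862, minus strand): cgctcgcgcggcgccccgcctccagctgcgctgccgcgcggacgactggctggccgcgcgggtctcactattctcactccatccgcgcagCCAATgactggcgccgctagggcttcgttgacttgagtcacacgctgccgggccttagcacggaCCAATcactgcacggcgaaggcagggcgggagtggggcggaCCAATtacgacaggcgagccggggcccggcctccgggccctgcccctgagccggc
Insig1 (chr5:28276160-28276409, plus strand): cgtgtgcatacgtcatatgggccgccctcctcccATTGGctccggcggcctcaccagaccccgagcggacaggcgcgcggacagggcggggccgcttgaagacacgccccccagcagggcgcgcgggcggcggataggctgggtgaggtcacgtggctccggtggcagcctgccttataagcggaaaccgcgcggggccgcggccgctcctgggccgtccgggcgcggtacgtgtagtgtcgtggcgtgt
Abca1 (chr4:53159896-53160145, minus strand): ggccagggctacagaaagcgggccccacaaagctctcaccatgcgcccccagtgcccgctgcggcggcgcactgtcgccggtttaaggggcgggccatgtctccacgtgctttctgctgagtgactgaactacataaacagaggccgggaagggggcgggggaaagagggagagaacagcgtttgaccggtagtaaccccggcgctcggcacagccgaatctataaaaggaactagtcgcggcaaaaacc

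Over windows of 250 bases before to 50 after the start, 25 of the 30 members had at least 1 of 33 windows. CCAAT, the box bound by NF-Y, which works beside SREBP, stood in a window of 21 of these 25 genes (22 of 33 windows), against 37.4% of 32851 promoters. The GC box GGGCGG stood in 22 genes (26 windows), against 35.7% of promoters, and the E-box CACGTG in 6 genes (7 windows), against 7.15%. The classical sterol element TCACNCCAC was found in the window of Hmgcs1, 1 of 25 genes, against 1.24% of promoters. Mvk held 5 CCAAT boxes in its upstream stretch, the most of any member with a window. Hmgcs1 and Msmo1 held 3 each, and Abca1 held 0. Both strands were searched and each motif was counted on its own, whether or not it overlapped another. A match describes letters and not a bound site.

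In WT mES cells the module was led, per kb of exon, by Acly, which makes cytosolic acetyl-CoA, at 213 CPM per kb. Hmgcs1 followed at 91.8, Insig1 at 79.3, Srebf2 at 77.6, Acat2 at 61.0 and Fdft1 at 53.8 CPM per kb. Insig2 (3.75 CPM per kb) and Fdps (1.13 CPM per kb) closed the order. Of Fdps, 4.65% of the counts that included multimapped reads were kept as unique, between 2.85% and 10.8% by library, so its level and its direction are uncertain here. Idi1 kept 45.6%, and each of the other members kept 90.6% or more.

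From WT mES cells to WT EpiLCs the efflux genes fell, while the mevalonate genes and the enzymes after lanosterol turned on the WT set. Of the 30 members 10 rose and 12 fell, beside 35.8% and 28.6% of all genes, and 3 fell past 2-fold (31.1% of all genes moved past 2-fold). All 4 genes of efflux and LXR fell, with a median of -0.87, and 5 of the 8 enzymes after lanosterol fell. Of these 8, 0 rose and 6 fell with WT replicates 1 to 4 alone (median -0.55). With replicates 5 to 8 alone 2 rose and 2 fell (median -0.02). Of the 7 mevalonate genes 5 rose, and Mvk (0.00 ± 0.09, adjusted p = 0.977) and Idi1 (-0.05 ± 0.07, adjusted p = 0.612) were not called. With WT replicates 1 to 4 alone 1 of these 7 rose and 1 fell (median 0.04), and with replicates 5 to 8 alone 5 rose (median 0.61). The member median was -0.09, beside 0.07 over all genes. With WT replicates 1 to 4 alone 2 members rose and 16 fell, and with replicates 5 to 8 alone 11 rose and 9 fell. Upper-quartile scaling, which moved the median of all genes to 0.15, gave 10 and 11. The 10 that held in both sets and in all 8 libraries were Ggps1 and Lss, which rose, and Fdft1, Ebp, Dhcr7, Insig1, Srebf1, Abca1, Abcg1 and Mylip, which fell.

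Abca1, the exporter of cholesterol to apolipoproteins (ENSMUSG00000015243.5, chr4:53030787-53159900), measured 52.0 to 86.6 CPM with a median of 71.9 CPM in WT mES cells and 2.83 to 4.62 CPM with a median of 3.29 CPM in WT EpiLCs. The stages were wide apart, with EpiLCs 21.3-fold lower (-4.41 ± 0.10, adjusted p = 7.61e-33). Ebp, the sterol isomerase after the C4 demethylations (ENSMUSG00000031168.15, chrX:8050773-8059795), measured 30.8 to 57.7 CPM with a median of 39.7 CPM in mES cells and 7.26 to 12.8 CPM with a median of 8.86 CPM in EpiLCs. These ranges did not overlap either, and EpiLCs were 4.52-fold lower (-2.18 ± 0.11, adjusted p = 7.86e-21). Mylip, the LXR target that marks lipoprotein receptors for breakdown (ENSMUSG00000038175.11, chr13:45543215-45565501), went from 16.5 to 22.4 CPM with a median of 19.4 CPM to 6.61 to 9.33 CPM with a median of 7.88 CPM, again without overlap (-1.28 ± 0.08, adjusted p = 1.13e-18).

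In LBRKO mES cells few members moved. Of 30 members 6 rose (Mvk, Lss, Tm7sf2, Srebf1, Scap and Abca1), where 12.7% of all genes rose, and 0 fell by edgeR, where 11.2% of all genes fell (0 by DESeq2 and 0 at unadjusted p under 0.05). The median over members was 0.14, beside 0.02 over all genes. Abca1 was the 1 member past 2-fold, where 6.31% of all genes were. Against WT replicates 1 to 4 alone 13 rose, and against replicates 5 to 8 alone 5 rose; Of these 6, Lss and Abca1 also rose against both sets, Lss with 0.31 ± 0.10, adjusted p = 0.0258 and no call without LBRKO replicate 1, 2 or 3 (0.26 to 0.28). Mvd (0.26 ± 0.11, adjusted p = 0.0935) and Msmo1 (0.22 ± 0.09, adjusted p = 0.0774) were called against each set but not against all 8 libraries. The count was 2 without LBRKO replicate 1, and 3 without LBRKO replicate 2 or 3.

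In LBRKO EpiLCs most of the path was higher. Of 30 members 18 rose and 3 fell (Idi1, Abcg1 and Mylip), where 11% of all genes rose and 14.2% fell. Of the 18 enzymes 14 rose, with a median of 0.52, and the median over all members was 0.44, beside 0.00 over all genes. No member passed 2-fold (0 by edgeR, 0 by DESeq2 and 0 at unadjusted p under 0.05), where 5.67% of all genes did. The rise was spread along the path: 5 of 7 mevalonate genes, 3 of 3 from squalene to lanosterol and 6 of 8 after lanosterol. Fdps is counted among those that rose, here and against both WT sets below. Its 0.74 in unique counts became 0.27 with multimapped reads (edgeR, adjusted p = 0.078) and was not called. Against WT replicates 1 to 4 alone 22 members rose with a median of 0.62, 4 of them past 2-fold, and against replicates 5 to 8, which match LBRKO in depth, 18 rose with a median of 0.26. Held against both sets were 17 of the 18, Acat2 being the exception, and Abcg1 among those that fell. Naive markers summed to 194.9 to 294.9 CPM in LBRKO EpiLCs, above the 104.1 to 172.7 CPM of WT EpiLCs, and primed markers to 2523 to 2859 CPM, below 3150 to 3840 CPM, and the part of these in the result was not tested.

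In mES cells without lamins part of the module was lower. In TKO mES cells no member rose (0 by edgeR, 0 by DESeq2 and 0 at unadjusted p under 0.05) and 15 fell, where 8.09% of all genes rose and 13.2% fell. Of the 18 enzymes 10 fell, with a median of -0.32, and so did Insig1, Srebf1, Scap, Abca1 and Nr1h2. The member median was -0.25, beside -0.01 over all genes, and 0 members passed 2-fold (0 unadjusted, 0 by DESeq2), where 6.45% of all genes did. Against WT replicates 1 to 4 alone 17 fell and against replicates 5 to 8 alone 18 fell, and 13 fell in each. Without TKO replicate 3 the count was 9.

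In TKO EpiLCs the outcome turned on which WT libraries were used. Against all 8, 1 member rose (Scap) and 5 fell (Hmgcs1, Ggps1, Tm7sf2, Ebp and Acly), where 4.63% of all genes rose and 10% fell, with a member median of -0.13 beside -0.04. Against WT replicates 1 to 4 alone 6 rose and 3 fell, with a median of 0.06. Against replicates 5 to 8 alone 1 rose and 17 fell, with a median of -0.28. Mvd, Lss, Msmo1 and Insig1 rose against the former set and fell against the latter. Scap rose, and Hmgcs1, Ggps1 and Tm7sf2 fell, against both. No member passed 2-fold (0 by edgeR, 0 unadjusted, 0 by DESeq2), where 2.91% of all genes did.

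In QKO cells, without lamins and with both Lbr alleles edited, nearly all members were lower in mES cells and most in EpiLCs. In QKO mES cells 27 of 30 members fell and 2 rose (Abca1 and Fdps, the latter uncertain), where 23.5% of all genes fell and 21% rose. Of the 18 enzymes 17 fell, among them all 8 after lanosterol, and the medians were -0.65 over the enzymes and -0.60 over the members, beside 0.01 over all genes. The 4 members past 2-fold were Abcg1, Insig1, Idi1 and Tm7sf2, where 17.2% of all genes were. In QKO EpiLCs 21 members fell and 3 rose (Fdps, Scap and Abca1), where 30.5% of all genes fell and 24.3% rose, with a member median of -0.52 beside -0.01. Tm7sf2, Pmvk and Abcg1 passed 2-fold there, where 21.2% of all genes did. Against WT replicates 1 to 4 alone 25 members fell and 1 rose in mES cells (median -0.52) and 18 fell and 6 rose in EpiLCs (median -0.28). Against replicates 5 to 8 alone it was 28 and 1 in mES cells (median -0.59) and 23 and 3 in EpiLCs (median -0.60). The EpiLC enzymes had a median of -0.28 against the former set and -0.68 against the latter. Primed markers summed to 2205 to 2318 CPM in QKO EpiLCs, below the 3150 to 3840 CPM of WT EpiLCs, with naive markers at 143.3 to 169.3 CPM. The sums do not speak for each gene. Of the 4 primed markers 1 rose and 1 fell there (median 0.19). Of the 6 naive markers 3 rose and 1 fell (median 0.20). The part of these markers in the result was not tested. Of the fallen members 25 in mES cells and 18 in EpiLCs fell against either WT set alone, while Stard4 in EpiLCs rose against replicates 1 to 4 (0.19, adjusted p = 0.0192) and fell against 5 to 8 (-0.24, adjusted p = 0.00347). Under upper-quartile scaling, where the median of all genes moved to 0.13 in mES cells and 0.17 in EpiLCs, 24 and 17 members fell and 2 and 5 rose.

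**Figure D1:**
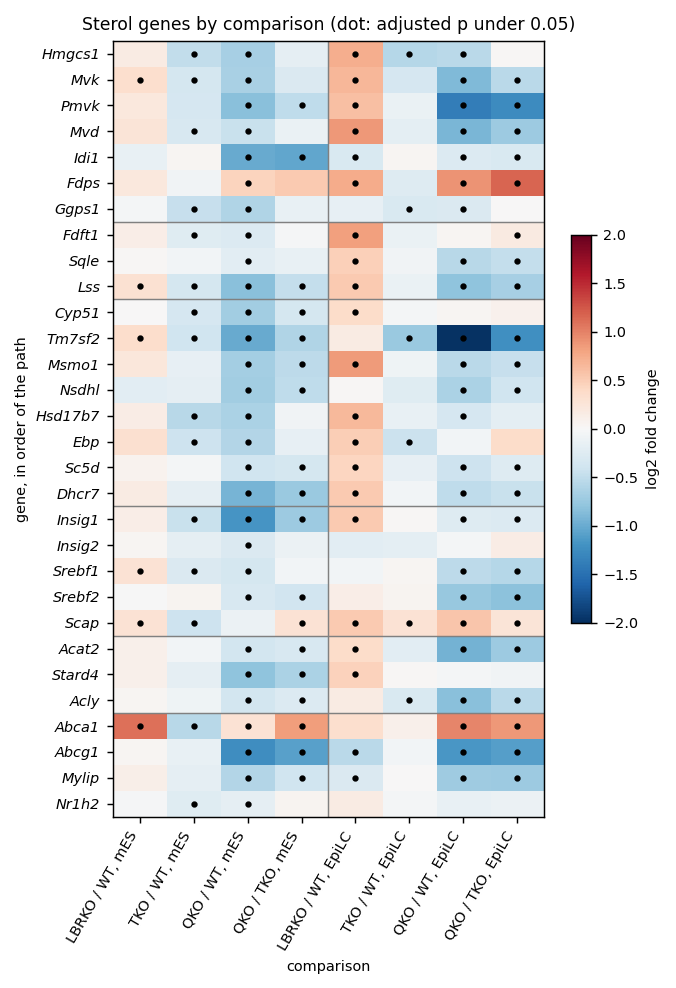
Log2 fold changes of the 30 members in the 8 comparisons of mutants, with rows in the order of the path and a dot where the adjusted p was under 0.05. The QKO columns hold 27 lower members in mES cells and 21 in EpiLCs, the LBRKO EpiLC column 18 higher ones.

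The QKO clone was also lower than the TKO line it was made from. The contrast holds no WT library, though WT libraries share in the fit that sets its p-values. In mES cells 16 members fell and 2 rose (Scap and Abca1), where 11.3% of all genes fell and 9.16% rose, with a median of -0.30 beside 0.02, and Idi1 and Abcg1 passed 2-fold, where 6.21% of all genes did. In EpiLCs 18 fell and 4 rose (Fdps, Fdft1, Scap and Abca1), where 23% fell and 18.9% rose, with a median of -0.35 beside -0.01. Past 2-fold were Pmvk, Tm7sf2 and Abcg1, which were lower, and Fdps (-0.38 with multimapped reads), where 15.3% of all genes were. Fdft1 was not called without any 1 of 8 libraries (0.15 to 0.19), Scap not without TKO replicate 3 in mES cells (0.25) and not without TKO replicate 1 or QKO replicate 3 in EpiLCs (0.19 to 0.22). Some falls were lost in the same way. In mES cells these were Acat2 (any 1 of 6 libraries), Pmvk and Acly (1 library each). In EpiLCs they were Sc5d (any 1 of 5), Idi1 (any 1 of 3) and Nsdhl (any 1 of 2). Upper-quartile scaling, with the median of all genes at 0.10, gave 14 lower and 7 higher members in EpiLCs. After lanosterol 6 of 8 enzymes fell in mES cells and 5 of 8 in EpiLCs. Depth of the TKO and QKO libraries overlapped.

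Whether the loss of LBR moved a member differently with and without the lamins was tested as the interaction, QKO minus TKO against LBRKO minus WT. In mES cells 0 members had a higher interaction by edgeR (0 by DESeq2 and 0 at unadjusted p under 0.05) and 15 had a lower one, where 7.28% and 10.3% of all genes did, with a median of -0.38 beside 0.02. In EpiLCs 22 were lower and 2 higher (Insig2 and Abca1), where 13.6% and 10.7% of all genes were, with a median of -0.66 beside 0.00. The EpiLC interaction was lower for 13 of the 18 enzymes, with a median of -0.77. Past 2-fold were Abcg1 in mES cells, where 7.5% of all genes were, and Mvk, Pmvk, Mvd, Lss, Tm7sf2, Msmo1 and Acat2 in EpiLCs, where 8.05% of all genes were. With WT replicates 1 to 4 alone 12 members passed 2-fold in EpiLCs, and with replicates 5 to 8 alone 4 did. In mES cells 2 passed 2-fold with either set, and 2 also without QKO replicate 2.

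**Figure D2:**
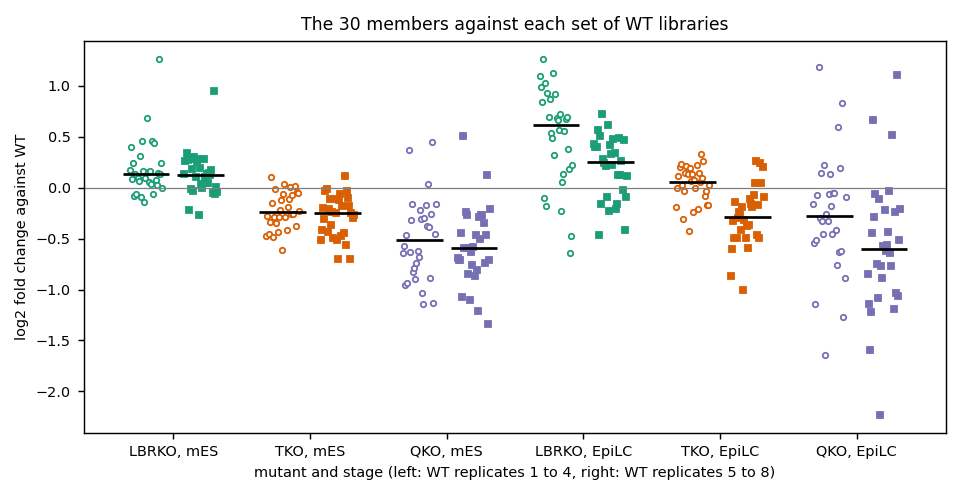
Log2 fold changes of the 30 members in the comparisons of LBRKO, TKO and QKO with WT, drawn against WT replicates 1 to 4 and against WT replicates 5 to 8, with a bar at the median. In TKO EpiLCs the median sat at 0.06 against the former and -0.28 against the latter, while the QKO mES medians were -0.52 and -0.59.

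Hmgcs1, which condenses acetoacetyl-CoA to HMG-CoA at the entry to the path (ENSMUSG00000093930.3, chr13:120151915-120170470), measured 397 to 452 CPM with a median of 425 CPM in WT mES cells. TKO mES cells gave 298, 299, 308 and 292 CPM and QKO mES cells gave 270.0, 263, 264 and 266 CPM. Every TKO and QKO library lay below every WT library (TKO -0.49 ± 0.11, adjusted p = 0.000466; QKO -0.67 ± 0.11, adjusted p = 2.13e-06). In EpiLCs WT replicates 1 to 4 gave 386 to 434 CPM and replicates 5 to 8 gave 602 to 715 CPM. LBRKO EpiLCs gave 873, 956, 819 and 869.9 CPM, all above either WT set (0.72 ± 0.10, adjusted p = 4.01e-07; 1.10, adjusted p = 1.89e-17 against replicates 1 to 4 and 0.43, adjusted p = 4.71e-07 against 5 to 8). TKO EpiLCs gave 336, 358, 372 and 373 CPM and QKO EpiLCs 359, 371, 355 and 375 CPM, all below every WT library (TKO -0.56 ± 0.11, adjusted p = 0.000154; QKO -0.54 ± 0.11, adjusted p = 3.55e-05). The size turned on the WT set, at -0.19 (TKO) and -0.16 (QKO) against replicates 1 to 4 and at -0.86 and -0.84 against 5 to 8. Hmgcs1 shares exon bases with Nim1k on the other strand.

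Mvk, mevalonate kinase (ENSMUSG00000041939.15, chr5:114582267-114601803), was 42.6 to 56.7 CPM in WT mES cells, with a median of 47.1 CPM, and 59.0, 61.4, 58.3 and 64.8 CPM in LBRKO mES cells. The LBRKO libraries lay above all WT ones, yet the difference was small (0.33 ± 0.11, adjusted p = 0.0276), and it missed the threshold against WT replicates 5 to 8 alone (0.27, adjusted p = 0.0594) and without any 1 LBRKO library (0.28 to 0.34). QKO EpiLCs gave 22.5, 25.2, 29.8 and 27.9 CPM where WT EpiLCs gave 36.8 to 66.7 CPM with a median of 44.8 CPM, with no overlap (-0.88 ± 0.12, adjusted p = 7.4e-08). LBRKO EpiLCs stood at 59.2 to 85.1 CPM (0.66 ± 0.11, adjusted p = 1.29e-05), and the EpiLC interaction was -1.21 ± 0.18, adjusted p = 1.34e-06.

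Pmvk, the kinase of the next step (ENSMUSG00000027952.17, chr3:89361758-89376323), measured 36.6 to 65.0 CPM with a median of 51.5 CPM in WT EpiLCs. QKO EpiLCs gave 25.0, 15.4, 17.1 and 17.8 CPM, 2.61-fold lower and with no overlap (-1.39 ± 0.14, adjusted p = 3.87e-11). The fall was seen against the parent TKO line too (-1.26 ± 0.15, adjusted p = 1e-08), while LBRKO EpiLCs were higher than WT (0.60 ± 0.12, adjusted p = 0.000254). These opposite directions gave an interaction of -1.86 ± 0.20, adjusted p = 1.53e-09. Mvd, which makes isopentenyl diphosphate (ENSMUSG00000006517.6, chr8:123160336-123170324), had 75.0 to 140.3 CPM with a median of 103 CPM in WT EpiLCs and 212, 211, 159 and 192 CPM in LBRKO EpiLCs. Every LBRKO library was above every WT library, 1.83-fold higher (0.87 ± 0.11, adjusted p = 3.99e-08), with 1.26, adjusted p = 7.69e-16 against WT replicates 1 to 4 and 0.56, adjusted p = 4.08e-07 against 5 to 8. QKO EpiLCs gave 57.5, 49.7, 63.2 and 54.9 CPM, below every WT library (-0.91 ± 0.12, adjusted p = 1.72e-08), and the interaction was -1.59 ± 0.17, adjusted p = 2.32e-09. Mvd and Msmo1 lie on chromosome 8, whose genes had a median log2 fold change of -0.01 in TKO at both stages. In LBRKO that median was 0.09 in mES cells and 0.08 in EpiLCs.

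Idi1, the isomerase of isopentenyl diphosphate (ENSMUSG00000058258.16, chr13:8935537-8942487), measured 34.3 to 47.6 CPM with a median of 40.7 CPM in WT mES cells and 21.1, 21.1, 19.5 and 19.8 CPM in QKO mES cells. The groups were apart and QKO was 2.01-fold lower (-1.01 ± 0.10, adjusted p = 2.14e-11). In LBRKO EpiLCs, where 14 of the 18 enzymes rose and 3 were not called, Idi1 fell (-0.30 ± 0.09, adjusted p = 0.0138). This fall was not called against WT replicates 1 to 4 alone (-0.10, adjusted p = 0.405). Fdps, which joins the isoprene units to farnesyl diphosphate, stood at 0.90 in QKO EpiLCs in unique counts and at -0.67 (adjusted p = 1.05e-05) once multimapped reads were counted. Its QKO mES value likewise went from 0.44 to -0.23 (adjusted p = 0.106). Ggps1, on the branch to geranylgeranyl groups, fell in TKO and QKO at both stages, with -0.46 and -0.61 in mES cells and -0.30 and -0.29 in EpiLCs on the log2 scale.

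Fdft1, squalene synthase, which commits farnesyl units to sterol (ENSMUSG00000021273.12, chr14:63382189-63417027), had 128 to 175 CPM with a median of 145 CPM in WT EpiLCs. LBRKO EpiLCs gave 253, 279, 219.7 and 286 CPM, all above WT (0.82 ± 0.06, adjusted p = 4.01e-14), and the rise was of like size against WT replicates 1 to 4 and 5 to 8 (0.93 and 0.73). In QKO EpiLCs Fdft1 gave 0.04 ± 0.06, adjusted p = 0.624, with a rise against WT replicates 1 to 4 alone (0.15, adjusted p = 0.0354) and -0.06, adjusted p = 0.454 against 5 to 8. Sqle, the monooxygenase that oxidizes squalene, rose in LBRKO EpiLCs (0.47 ± 0.07, adjusted p = 3.42e-06) and fell in QKO EpiLCs (-0.55 ± 0.08, adjusted p = 1.01e-07). Lss, which closes the ring to lanosterol (ENSMUSG00000033105.13, chr10:76367298-76392976), measured 150.0 to 272 CPM with a median of 206 CPM in WT EpiLCs, 329, 329.7, 269 and 271 CPM in LBRKO EpiLCs and 105, 122, 128 and 122 CPM in QKO EpiLCs. Lss rose in LBRKO EpiLCs (0.53 ± 0.10, adjusted p = 0.000104) and fell in QKO EpiLCs (-0.81 ± 0.11, adjusted p = 3.97e-08), with an interaction of -1.20 ± 0.16, adjusted p = 1.92e-07. Fdft1 shares exon bases with Ctsb, and Sqle with Washc5, on the other strand.

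**Figure D3:**
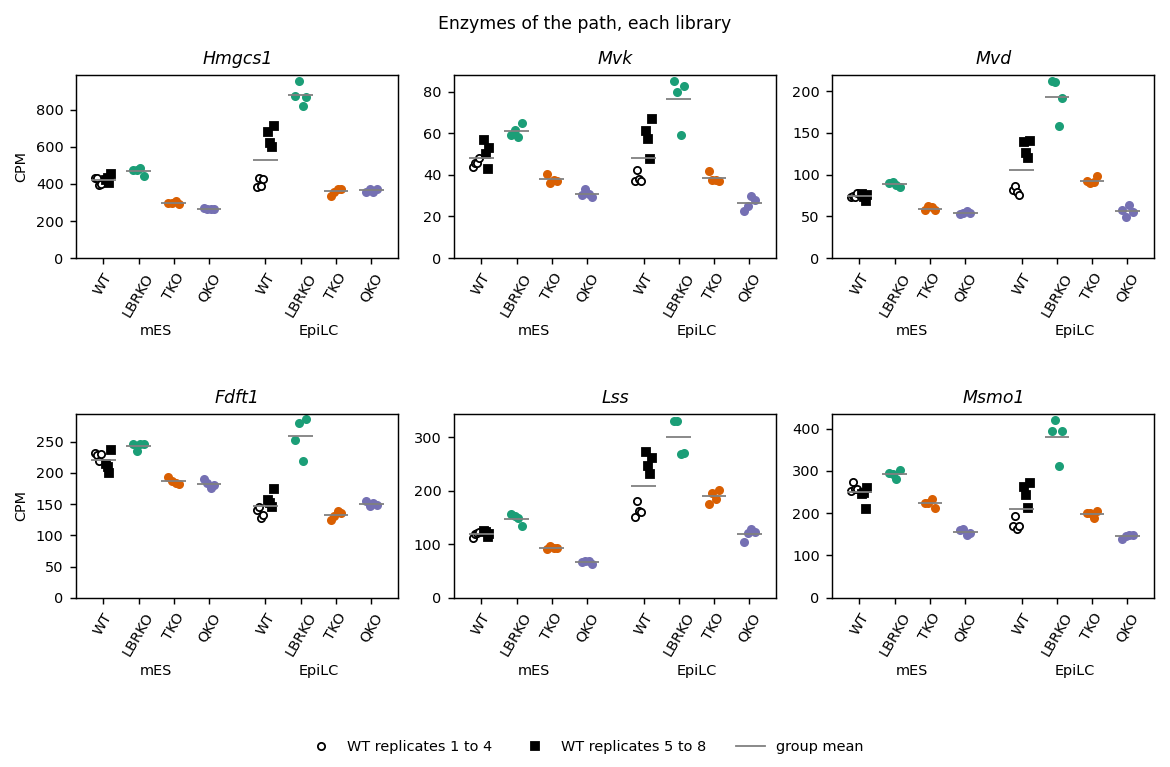
CPM of Hmgcs1, Mvk, Mvd, Fdft1, Lss and Msmo1 in each library by group, with WT replicates 1 to 4 and 5 to 8 marked apart and a line at the group mean. The 4 LBRKO EpiLC libraries of Hmgcs1 (819 to 956 CPM) sit above both WT sets, and WT replicates 5 to 8 sit above 1 to 4.

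The C14-reductase step has a pair of genes, and both were read. Lbr RNA (ENSMUSG00000004880.12, chr1:181641631-181672984) was kept in the mutants, and a frameshift or in-frame deletion need not remove the RNA. WT mES cells gave 347 to 407 CPM with a median of 375 CPM, LBRKO mES cells 274, 253, 145 and 162 CPM and QKO mES cells 238, 237, 236 and 239 CPM. The mutant libraries all lay below WT (LBRKO -0.83 ± 0.14, adjusted p = 8.58e-06; QKO -0.65 ± 0.14, adjusted p = 0.000148). LBRKO replicates 3 and 4 were lower than 1 and 2. In EpiLCs LBRKO gave 403, 392, 196 and 233 CPM and QKO 252, 282, 291 and 282 CPM, where WT gave 364 to 513 CPM with a median of 421 CPM. LBRKO overlapped WT there and QKO did not (LBRKO -0.49 ± 0.14, adjusted p = 0.00574; QKO -0.63 ± 0.14, adjusted p = 0.000131). In TKO, Lbr gave -0.08 ± 0.13, adjusted p = 0.757 in mES cells and -0.23 ± 0.13, adjusted p = 0.288 in EpiLCs.

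Tm7sf2 (ENSMUSG00000024799.17, chr19:6112851-6118403, minus strand), the reductase that remains, measured 27.9 to 40.3 CPM with a median of 34.7 CPM in WT mES cells and 44.6, 44.6, 43.0 and 46.2 CPM in LBRKO mES cells. The LBRKO libraries all lay above WT (0.35 ± 0.12, adjusted p = 0.0264), but the rise missed the threshold against WT replicates 5 to 8 alone (0.25, adjusted p = 0.0834) and without WT replicate 1 or any 1 LBRKO library (0.30 to 0.35). TKO mES cells gave 26.9, 28.0, 24.8 and 27.0 CPM, overlapping WT (-0.39 ± 0.12, adjusted p = 0.0177; -0.35 and not called without TKO replicate 3), and QKO mES cells gave 16.7, 20.8, 16.1 and 16.3 CPM, below every WT and TKO library (-1.002 ± 0.13, adjusted p = 2.16e-08).

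In EpiLCs Tm7sf2 had the largest fall of any member in a mutant against WT. WT gave 24.5 to 44.2 CPM with a median of 30.1 CPM, LBRKO 39.9, 36.0, 28.2 and 39.1 CPM, TKO 20.2, 20.0, 17.2 and 18.6 CPM and QKO 6.55, 7.87, 9.40 and 8.69 CPM. LBRKO overlapped WT (0.17 ± 0.12, adjusted p = 0.344), and its difference was 0.49, adjusted p = 0.000191 against WT replicates 1 to 4 and -0.09, adjusted p = 0.579 against 5 to 8. TKO lay below WT (-0.75 ± 0.13, adjusted p = 3.1e-05) and QKO below TKO (-1.22 ± 0.15, adjusted p = 1.19e-08), so that QKO was 3.92-fold lower than WT (-1.97 ± 0.14, adjusted p = 1.34e-15). The interaction was -0.96 ± 0.19, adjusted p = 0.000139 in mES cells and -1.39 ± 0.19, adjusted p = 3.75e-07 in EpiLCs. Exons of Tm7sf2 overlap those of Vps51 on the same strand, and Vps51 gave -0.33 (adjusted p = 0.00154) in QKO mES cells and -0.43 (adjusted p = 6.64e-05) in QKO EpiLCs.

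**Figure D4:**
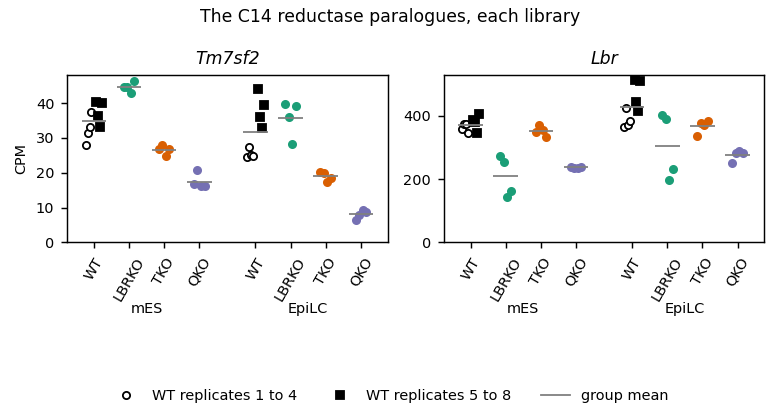
CPM of Tm7sf2 and Lbr in each library by group, with WT replicates 1 to 4 and 5 to 8 marked apart and a line at the group mean. Tm7sf2 falls from 24.5 to 44.2 CPM in WT EpiLCs to 6.55 to 9.40 CPM in QKO EpiLCs, while Lbr RNA stays at 235.8 CPM or more in every QKO library.

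Msmo1, which oxidizes the C4 methyl groups (ENSMUSG00000031604.11, chr8:65170603-65186830), measured 164 to 272 CPM with a median of 202 CPM in WT EpiLCs and 394, 420.1, 311 and 395 CPM in LBRKO EpiLCs. All LBRKO libraries lay above all WT ones, 1.80-fold higher (0.85 ± 0.09, adjusted p = 1.31e-09; 1.13 against WT replicates 1 to 4 and 0.62 against 5 to 8). QKO EpiLCs gave 139, 145, 149 and 148 CPM, below every WT library (-0.54 ± 0.10, adjusted p = 1.1e-05), and the interaction was -1.31 ± 0.14, adjusted p = 3.73e-09. Hsd17b7, the keto-reductase of the same demethylation (ENSMUSG00000026675.13, chr1:169777093-169796813), measured 27.5 to 32.5 CPM with a median of 29.8 CPM in WT mES cells and 18.8, 19.8, 19.7 and 22.2 CPM in TKO mES cells, without overlap (-0.56 ± 0.11, adjusted p = 8.51e-05).

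Ebp in EpiLCs gave 8.03, 5.86, 6.50 and 7.48 CPM in TKO, overlapping WT (-0.43 ± 0.15, adjusted p = 0.0391), and that fall was not called against WT replicates 1 to 4 alone (-0.24, adjusted p = 0.129), nor without any 1 of WT replicates 5, 6 and 8 or TKO replicates 2, 3 and 4 (-0.47 to -0.35). Cyp51, the C14-demethylase that feeds the reductases, fell in QKO mES cells (-0.69 ± 0.07, adjusted p = 1.37e-10) and gave 0.05 ± 0.07, adjusted p = 0.601 in QKO EpiLCs, with a rise against WT replicates 1 to 4 alone (0.22, adjusted p = 0.000617) and -0.11, adjusted p = 0.0774 against 5 to 8. Nsdhl, of the C4 demethylation, fell in QKO at both stages (-0.70 and -0.64) and gave 0.02 ± 0.11, adjusted p = 0.933 in LBRKO EpiLCs. Sc5d, which sets the C5 double bond, rose in LBRKO EpiLCs (0.42 ± 0.09, adjusted p = 0.00017) and fell in QKO EpiLCs (-0.42 ± 0.09, adjusted p = 0.000116). Dhcr7, the last reductase, fell in QKO mES cells (-0.93 ± 0.07, adjusted p = 5.46e-14) and in QKO EpiLCs (-0.51 ± 0.07, adjusted p = 9.19e-08), and rose in LBRKO EpiLCs (0.52 ± 0.07, adjusted p = 8.94e-08). For these enzymes the QKO EpiLC falls were larger against WT replicates 5 to 8 than against 1 to 4, with -1.14 and -0.54 for Mvk, -1.22 and -0.51 for Mvd, -1.09 and -0.45 for Lss, -0.77 and -0.25 for Msmo1, -0.89 and -0.33 for Nsdhl and -0.62 and -0.17 for Sc5d. In LBRKO EpiLCs Lss gave 0.25 and 0.87, Sc5d 0.22 and 0.66 and Mvk 0.40 and 0.99 in the same order.

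Among the control genes, Insig1, itself an SREBP target that holds SCAP back (ENSMUSG00000045294.12, chr5:28276315-28283668), measured 236 to 269 CPM with a median of 245 CPM in WT mES cells. TKO mES cells gave 176 to 186 CPM and QKO mES cells 104, 116, 105 and 109.9 CPM. The 3 groups were wholly apart, with QKO 2.26-fold lower than WT (-1.18 ± 0.08, adjusted p = 1.76e-16) and TKO at -0.44 ± 0.07, adjusted p = 9.94e-06. In EpiLCs LBRKO had 189.6 to 207 CPM against 112 to 161 CPM with a median of 139 CPM in WT (0.52 ± 0.07, adjusted p = 2.09e-07). QKO EpiLCs were lower than WT (-0.26 ± 0.07, adjusted p = 0.00307), though not against WT replicates 1 to 4 alone (-0.05, adjusted p = 0.502).

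Srebf2, which encodes the SREBP that drives most of the path, fell in QKO mES cells (-0.32 ± 0.07, adjusted p = 0.000257) and QKO EpiLCs (-0.76 ± 0.07, adjusted p = 9.3e-12), and gave 0.13 ± 0.07, adjusted p = 0.195 in LBRKO EpiLCs. Scap, the sterol sensor and escort, rose in EpiLCs of every mutant: LBRKO (0.52 ± 0.07, adjusted p = 3.6e-07), TKO (0.30 ± 0.07, adjusted p = 0.00414) and QKO (0.56 ± 0.07, adjusted p = 2.36e-08), where in the last 21 members fell. In mES cells it rose in LBRKO (0.28 ± 0.07, adjusted p = 0.00328) and fell in TKO (-0.42 ± 0.08, adjusted p = 5.48e-05). Srebf1, whose product leans to fatty acid genes, rose in LBRKO mES cells (0.29 ± 0.09, adjusted p = 0.0122; 0.25 and not called without LBRKO replicate 1) and fell in QKO EpiLCs (-0.53 ± 0.09, adjusted p = 3.69e-06). Insig2, the other INSIG, fell in QKO mES cells (-0.29 ± 0.09, adjusted p = 0.00512) and gave -0.04 ± 0.08, adjusted p = 0.695 in QKO EpiLCs.

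Of the supply genes, Acly fell in QKO mES cells (-0.36 ± 0.08, adjusted p = 0.000205) and QKO EpiLCs (-0.84 ± 0.08, adjusted p = 1.04e-11), as did Acat2, the cytosolic thiolase that makes acetoacetyl-CoA (-0.36 ± 0.10, adjusted p = 0.00276 and -0.94 ± 0.10, adjusted p = 3.11e-10). Acat2 rose in LBRKO EpiLCs (0.37 ± 0.10, adjusted p = 0.00327), though not against WT replicates 5 to 8 alone (0.12, adjusted p = 0.267), and had an EpiLC interaction of -1.09 ± 0.15, adjusted p = 3.32e-07. Stard4, a sterol carrier, rose in LBRKO EpiLCs (0.46 ± 0.08, adjusted p = 4.12e-05) and fell in QKO mES cells (-0.81 ± 0.09, adjusted p = 7.17e-10).

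The efflux genes parted from each other. Abca1 measured 171, 164, 147 and 145 CPM in LBRKO mES cells, 48.5, 51.1, 48.7 and 51.4 CPM in TKO and 83.0, 90.0, 94.9 and 87.3 CPM in QKO. LBRKO lay above every WT library, 2.14-fold higher (1.10 ± 0.10, adjusted p = 1.49e-11), and every TKO library lay below (-0.55 ± 0.11, adjusted p = 0.00012). QKO overlapped WT (0.28 ± 0.10, adjusted p = 0.0233) and its rise was lost against WT replicates 5 to 8 alone (0.13, adjusted p = 0.288) and without WT replicate 4 or QKO replicate 3 (0.22 to 0.26), yet QKO lay above TKO (0.83 ± 0.12, adjusted p = 1.36e-06). In EpiLCs, where the level was low, LBRKO gave 3.84, 4.78, 4.43 and 4.17 CPM (0.33 ± 0.13, adjusted p = 0.0534) and QKO gave 6.05, 5.85, 9.17 and 5.94 CPM. The QKO libraries were all above WT (0.98 ± 0.13, adjusted p = 1.39e-08) and above TKO as a group (0.87 ± 0.15, adjusted p = 1.07e-05). In LBRKO mES cells the trophectoderm markers summed to 73.7 to 80.2 CPM (WT 29.98 to 44.8), with 2 of 5 (Gata3 and Elf5) under 1 CPM, and the primitive endoderm markers to 21.6 to 25.1 CPM (WT 9.37 to 11.3), with 6 of 10, Gata6 and Sox17 among them, under 1 CPM. The part of either in the rise of Abca1 was not tested.

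Abcg1, the exporter of sterol to lipoprotein particles (ENSMUSG00000024030.8, chr17:31276649-31336969), measured 57.9 to 71.5 CPM with a median of 63.9 CPM in WT mES cells, and QKO mES cells gave 25.3, 28.7, 28.5 and 27.7 CPM. The gap was wide, QKO being 2.36-fold lower (-1.24 ± 0.08, adjusted p = 1.56e-16). In EpiLCs WT had 39.4 to 59.7 CPM with a median of 45.9 CPM, LBRKO 30.2, 34.2, 35.1 and 30.98 CPM and QKO 20.2, 21.7, 22.0 and 20.1 CPM. Both mutants lay below every WT library (LBRKO -0.53 ± 0.08, adjusted p = 7.01e-07; QKO -1.17 ± 0.08, adjusted p = 8.02e-16). Abcg1 had the largest mES interaction of the module (-1.12 ± 0.11, adjusted p = 4.42e-10).

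Mylip in QKO gave 12.8, 12.2, 13.6 and 12.5 CPM at the mES stage and 4.57, 4.54, 5.44 and 4.76 CPM at the EpiLC stage, below every WT library of either stage (-0.59 ± 0.09, adjusted p = 1.89e-06 and -0.71 ± 0.10, adjusted p = 1.13e-07). In LBRKO EpiLCs it fell (-0.29 ± 0.10, adjusted p = 0.0211), but not against WT replicates 5 to 8 alone (-0.09, adjusted p = 0.476) and not without LBRKO replicate 4 (-0.23). Nr1h2, which encodes the broadly expressed LXR, fell in TKO mES cells (-0.25 ± 0.07, adjusted p = 0.00897; -0.21 and not called without TKO replicate 3) and QKO mES cells (-0.19 ± 0.07, adjusted p = 0.0303; -0.17 to -0.15 and not called without any 1 of 6 libraries), and gave -0.15 ± 0.07, adjusted p = 0.0717 in QKO EpiLCs. Abca1 thus stood apart from Abcg1 and Mylip, being higher in QKO EpiLCs where those were lower.

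**Figure D5:**
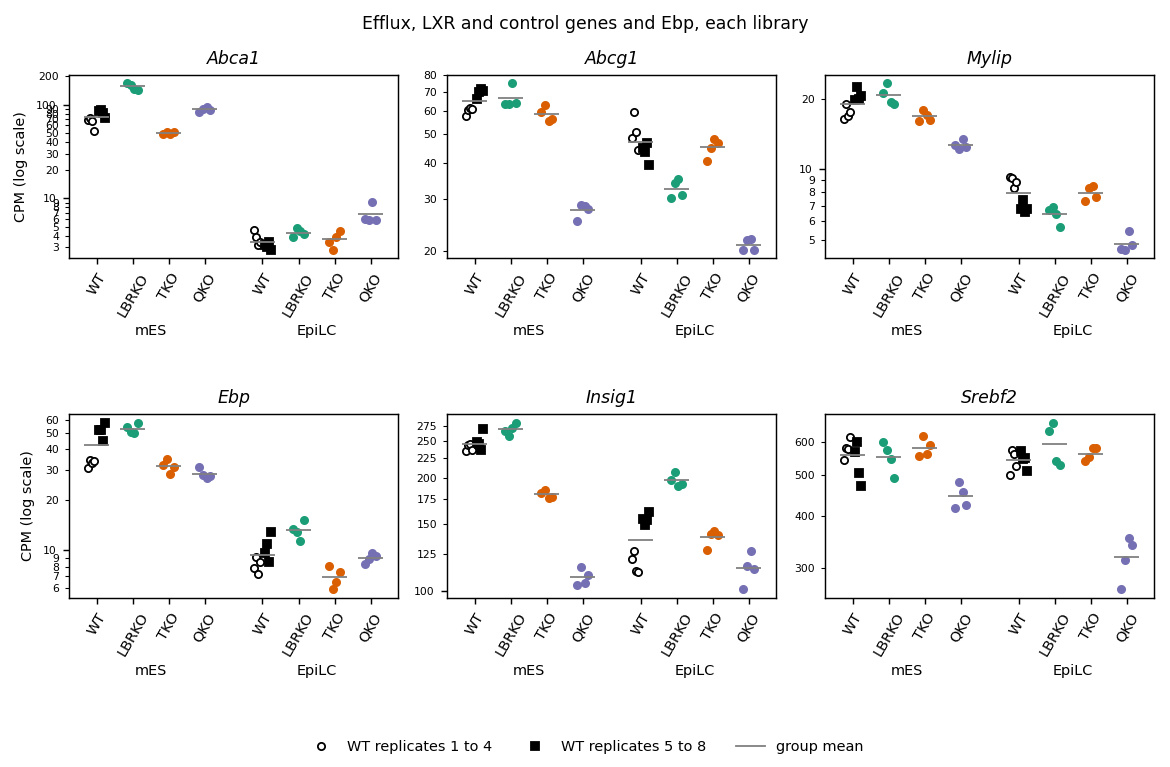
CPM, on a log axis, of Abca1, Abcg1, Mylip, Ebp, Insig1 and Srebf2 in each library by group, with WT replicates 1 to 4 and 5 to 8 marked apart and a line at the group mean. Abca1 is at 145 to 171 CPM in LBRKO mES cells against 52.0 to 86.6 in WT, while Abcg1 is at 25.3 to 28.7 CPM in QKO mES cells against 57.9 to 71.5.

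The passage itself differed between genotypes. Compared with the passage in WT, that in LBRKO was higher for 11 members and lower for 3 (Abca1, Abcg1 and Mylip), where 6.91% and 8.57% of all genes were, with a median of 0.26. That in TKO was higher for 4 (Cyp51, Insig1, Scap and Abca1), where 4.45% of all genes were, and lower for 0 by edgeR, where 3.98% were (1 at an unadjusted p under 0.05 and 0 by DESeq2). That in QKO was higher for 10 and lower for 7, where 12.9% and 16.9% of all genes were. Its balance turned on the WT set, with 14 higher and 5 lower for replicates 1 to 4 alone and 8 and 8 for replicates 5 to 8 alone. The TKO passage was higher for 9 with the former set, and higher for 6 and lower for 4 with the latter. The QKO values ran from 0.92 ± 0.10, adjusted p = 1.63e-09 for Insig1 to -0.97 ± 0.18, adjusted p = 3.82e-05 for Tm7sf2. None passed 2-fold in any of the 3 (0 by edgeR, 0 unadjusted and 0 by DESeq2), where 6%, 3.03% and 12.6% of all genes did. For LBRKO 22 members passed the adjusted p with WT replicates 1 to 4 alone and 8 with 5 to 8 alone, in place of 14.

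Other genes of lipid metabolism were read as lists beside the module. Over all genes 21% rose and 23.5% fell in QKO mES cells, 24.3% and 30.5% in QKO EpiLCs, and 11% and 14.2% in LBRKO EpiLCs. Of 12 genes of fatty acid synthesis under SREBP, 1 rose and 7 fell in QKO mES cells (median -0.34), and 2 rose and 9 fell in QKO EpiLCs (median -0.61). Among these, Acaca, which makes malonyl-CoA, fell by 1.42 (adjusted p = 1.52e-14) and Fasn, which builds palmitate, by 0.61 (adjusted p = 4.68e-05) in QKO EpiLCs, while Elovl6, a chain elongase, rose (0.35, adjusted p = 9.41e-05). In LBRKO EpiLCs 4 of these 12 rose and 1 fell, with a median of 0.10 where the 30 members had 0.44.

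Of 11 genes of sterol transport and storage, 7 fell in QKO mES cells and the others were not called (median -0.29), and 1 rose and 6 fell in QKO EpiLCs (median -0.65). Vldlr, a lipoprotein receptor, fell in QKO mES cells (-2.16, adjusted p = 9.93e-19), QKO EpiLCs (-2.86, adjusted p = 1.07e-22) and LBRKO EpiLCs (-1.44, adjusted p = 4.79e-14). The list as a whole was balanced in LBRKO EpiLCs, where 3 of the 11 genes rose and 3 fell (median -0.01). Soat1, which esterifies cholesterol for storage, fell by 1.62 in QKO EpiLCs (adjusted p = 1.55e-19). Of 13 genes that use isoprenoids for other products, 2 rose and 4 fell in QKO mES cells, and 1 rose and 6 fell in QKO EpiLCs (median -0.20). Of 10 genes of SREBP processing, 2 rose and 5 fell in QKO mES cells, and 1 rose and 5 fell in QKO EpiLCs (median -0.14). In LBRKO EpiLCs 1 gene of the isoprenoid list fell, and of the SREBP processing list 1 rose and 2 fell.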

How the data were processed

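Total RNA was measured in 40 libraries of 8 groups, with 8 WT and 4 mutant libraries per stage, depleted of ribosomal RNA and made with a stranded kit. The authors trimmed reads with cutadapt 2.5, aligned them with STAR 2.7.10a to GRCm39 and GENCODE M30, kept single alignments, and deposited raw counts per gene from featureCounts 1.6.4. The strand setting of the counting is not given in the sources used here. A deposited count table that also holds multimapped reads served as an alternative.

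Raw counts were scaled by TMM, filtered with filterByExpr and fitted over all 40 libraries with edgeR 4.0.16 in R 4.3.3 (glmQLFit, glmQLFTest), without a replicate block, and p-values were adjusted by Benjamini-Hochberg over 23399 genes at a threshold of 0.05. DESeq2 1.42.0, RLE and upper-quartile scaling, no filter, the groups compared alone, either WT set alone, a replicate block, multimapped counts and each library left out were tried. The fit was tested on simulated data. Gene positions come from GENCODE M39 (56017 of 56748 identifiers found) and promoters from RefSeq. Values per library are given for the 3 called members with the largest change in each comparison with WT and in the WT passage, for Tm7sf2 and Lbr, and for a few others chosen after their values were seen (Lss and Insig1 in EpiLCs, Mvk and Hmgcs1 in further groups). The members were listed by function, and both the module and the lists were proposed with earlier results of these data known. Libraries were not paired by replicate number. In no comparison was every pair of deviations correlated above 0.1, though 7 of 8 were between WT EpiLCs and WT mES cells. For QKO with TKO EpiLCs, and for LBRKO EpiLCs with LBRKO mES cells, 3 of 4 were, so pairing by number was not excluded. No 2 libraries of a group were alike within counting noise. Depth was 22.6 to 48.9 M counts, and the precision of low genes is limited by it.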

Additional observations from a re-analysis of the deposited data

Results flagged for a closer look

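The response to LBR loss differed between lamin backgrounds, by the interaction term of edgeR and past 2-fold, for Abcg1 in mES cells (-1.12 on the log2 scale). In EpiLCs it differed for Mvk (-1.21), Pmvk (-1.86), Mvd (-1.59), Lss (-1.20), Tm7sf2 (-1.39), Msmo1 (-1.31) and Acat2 (-1.09). In each of these 7, QKO was lower than TKO, while LBRKO was higher than WT in all but Tm7sf2, which had a value of 0.17 that was not called.

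In 14 of 240 groups of values, 1 library stood far from the others of its group, where chance gives about 1 in 20, or 12. Pmvk had 57.8 CPM in TKO EpiLC replicate 1, Mvk 41.7 CPM in the same library and Nsdhl 35.2 CPM there too. Mvd stood at 98.2 CPM in TKO EpiLC replicate 4. Fdft1 had 235.6 CPM in LBRKO mES replicate 2, Abcg1 75.1 CPM in LBRKO mES replicate 3 and Acly 1086 CPM in LBRKO mES replicate 4. Tm7sf2 had 20.8 CPM and Nr1h2 65.7 CPM in QKO mES replicate 2. Among WT mES libraries Msmo1 had 209.2 CPM in replicate 7, and Nsdhl 77.5 CPM and Insig1 269.1 CPM in replicate 8. Nsdhl had 44.7 CPM in LBRKO EpiLC replicate 3, and Abca1 9.17 CPM in QKO EpiLC replicate 3.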

How the results depend on the processing

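The counts of called members moved by over 1.5 times mainly with the WT set and with single LBRKO or TKO libraries, and the cause was not tested. For LBRKO mES the count of 6 was 10 with only the groups compared, 13 with WT replicates 1 to 4, 16 with a replicate block and 2 to 7 with 1 library left out. TKO mES ran from 9 to 17 with 1 library left out, and TKO EpiLC went from 6 to 18 with WT replicates 5 to 8. Past 2-fold, the mES interaction went from 1 to 2 with either WT set, to 3 with the replicate block and from 1 to 2 with 1 library left out, and the EpiLC interaction from 7 to 12 (WT 1 to 4) and 4 (WT 5 to 8). The LBRKO passage difference went from 0 to 2 (WT 1 to 4), and the QKO one from 0 to 1 with no filter, 3 (WT 1 to 4), 1 (WT 5 to 8) and 0 to 1 with 1 library left out. By adjusted p alone, the LBRKO passage went from 14 to 22 and 8, and the TKO passage from 4 to 9 and 10 with WT 1 to 4 and 5 to 8, to 7 with the replicate block and to 2 to 5 with 1 library left out. Directions turned for Fdps with multimapped reads (QKO mES -0.23, QKO EpiLC -0.67, QKO against TKO EpiLC -0.38), for Mvd (0.21), Lss (0.21) and Msmo1 (0.20) in TKO EpiLCs with WT 1 to 4 and Insig1 (-0.16) with WT 5 to 8. They also turned for Ebp in QKO EpiLCs with the replicate block (0.22), for Stard4 there with WT 1 to 4 (0.19), and in the WT passage for Hmgcs1 (-0.020), Mvk (-0.26), Hsd17b7 (-0.13) and Acat2 (-0.061) with WT 1 to 4 and Msmo1 (0.042) and Stard4 (0.22) with WT 5 to 8. The replicate block, which joins libraries by number alone, otherwise left each count within 1.5 times. In QKO EpiLC against TKO EpiLC every library correlated best with its own number, a hint from the data alone.

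QKO is 1 clone, and the clones behind the LBRKO libraries are not given, so line and genotype cannot be separated. Depth and WT set go together, and the labels give no batch to fit. Low members such as Abca1 and Ebp in EpiLCs rest on few CPM. Counts on overlapping exons, and those of Fdps and Idi1, whose reads are shared with copies, are uncertain.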
